A study of Mus musculus with 30 samples.

Results

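Alternative 5' and 3' splice site events are choices between neighbouring ends of the same exon. In an alternative 5' event the exon can end at more than 1 donor site, and in an alternative 3' event it can begin at more than 1 acceptor site. The events described here are all rows of these types in 4 tables of differential splicing, matched between tables by event name and isoforms. They number 265 of the 4923 events listed in all, 96 of them alternative 5' and 169 alternative 3' events, in 202 genes. Several events can share both sites and differ only at the far end of the exon, and the 265 events come down to 86 distinct pairs of 5' sites and 126 distinct pairs of 3' sites. A pair was identified by the site of the deposited isoform and the fixed site it is spliced to.

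Spliceosomes choose a donor site through base pairing with the U1 particle and an acceptor site through U2AF and the U2 particle, and RNA-binding proteins near a site can raise or lower its use. When neighbouring sites are a multiple of 3 bases apart inside coding sequence, the choice adds or removes amino acids without a shift of the reading frame. NOVA2 is a neuronal RNA-binding protein of KH domains that binds YCAY (Y is C or T), and it is known for control of exon use in neurons according to where it binds.

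The tables cover 18 samples in 6 groups of 3, all from C57BL/6J mice, with ribosomal RNA removed from total RNA. Nova2-cKO and wild-type control neurons were sorted from the cortex at embryonic day 18.5, either from Emx1-Cre mice, whose Cre acts in the excitatory lineage of the cortex, or from Gad2-Cre mice, whose Cre acts in inhibitory neurons. Control mice carried the Cre as well. Purkinje cell layer of Nova2-cKO and wild-type control Pcp2-Cre mice was taken at postnatal day 28; Pcp2-Cre acts in Purkinje cells, and a dissected layer also holds other cells. The fourth table sets Emx1-Cre controls against Gad2-Cre controls. A further 12 samples in 4 groups were left aside. From the labels it is not known whether the 3 samples of a group were separate animals, so the authors' FDR may measure technical spread. Each table holds 1 level per event and group, pooled over samples by the authors, so levels per sample and replicate errors cannot be given, and the depth of each sample is unknown. The tables hold no expression levels, so neither the loss of Nova2 nor the sorted cell type could be checked. In all tables, every listed event has an FDR of at most 0.05, an absolute difference of at least 0.1 and a coverage of at least 20, a measure of read support that no label or header defines. An event that is absent from a table may have failed any of these limits, and absence does not show that it did not change.

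Levels and differences below are those of the longer exon form, the isoform each event names first. Each level compares a pair of isoforms, but 15 of 96 alternative 5' and 22 of 169 alternative 3' events held 3 or more isoforms. There longer, shorter and major form refer to the compared pair only. Such events include Ank2, an Ank3 choice, U2af1l4, Sec23b, Slc29a1, Tcaim and the event of Eny2 and Gm22392. The isoform numbers were taken to run along the transcript. Where the deposited interval was that of isoform A0, annotated alternatives of its site in GENCODE M21 lay downstream at each of 83 alternative 5' and 145 alternative 3' events that had any, and 4 of these alternative 3' events also had 1 upstream. The second site was then looked for on the side that the numbering gives and was found for 75 alternative 5' and 121 alternative 3' events, so that the first-named isoform is the longer exon follows from the numbering. For the other events no second site was located, and the longer form rests on the numbering alone. These include an Ank3 choice, Ank2, the Atg4a donor choice, Glra2, Idh3b, Tia1, Sec23b, Slc29a1, Tcaim and the event of Eny2 and Gm22392. That the level is the share of the first-named isoform is a reading of the headers and was not tested for splice sites. Coordinates are on mm10 and counted from 1.

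The 12 sequences below show the bases that separate the forms for events of the cKO tables with large differences, chosen after their values were seen. Each is written 5' to 3' on the transcribed strand, the capitals mark the bases present only in the longer form, and 12 bases of the shared exon in lower case mark its boundary. They are GENCODE M21 transcript sequence on mm10. In the alternative 5' events the capitals begin with the GT of the inner donor site:

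Adam22, chr5:8094986-8095084, minus strand: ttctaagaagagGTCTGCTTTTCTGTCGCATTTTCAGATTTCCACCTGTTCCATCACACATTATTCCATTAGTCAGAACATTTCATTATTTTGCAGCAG
Cabin1, chr10:75713453-75713551, minus strand: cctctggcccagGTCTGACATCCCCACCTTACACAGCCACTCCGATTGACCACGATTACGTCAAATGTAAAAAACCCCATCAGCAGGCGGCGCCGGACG
Wnk3, chrX:151293889-151294041, plus strand: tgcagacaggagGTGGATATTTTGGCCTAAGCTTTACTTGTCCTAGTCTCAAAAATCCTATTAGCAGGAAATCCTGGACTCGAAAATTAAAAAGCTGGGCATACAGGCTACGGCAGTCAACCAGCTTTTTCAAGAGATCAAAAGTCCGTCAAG
Trak1, chr9:121460503-121460577, plus strand: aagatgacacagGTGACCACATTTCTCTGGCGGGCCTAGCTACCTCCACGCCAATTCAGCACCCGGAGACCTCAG
Itpr1, chr6:108388327-108388365, plus strand: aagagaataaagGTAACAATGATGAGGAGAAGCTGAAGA
Hdac9, chr12:34431863-34431880, minus strand: tcccaagctctgGTACAC

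In the alternative 3' events the capitals end with the AG of the inner acceptor site, and the shared exon follows:

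Tex2, chr11:106513695-106513712, minus strand: TTGCAGgcccagggcata
Rasal2, chr1:157158826-157158858, minus strand: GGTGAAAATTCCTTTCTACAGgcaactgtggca
Kalrn, chr16:34220236-34220274, minus strand: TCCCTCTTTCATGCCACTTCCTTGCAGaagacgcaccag
Ogt, chrX:101642976-101643017, plus strand: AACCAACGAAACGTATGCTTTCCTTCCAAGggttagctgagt
Ralgps1, chr2:33146639-33146653, minus strand: CAGgggacgtcttta
Helz, chr11:107627350-107627364, plus strand: CAGgattctcatttg

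All 12 extensions are annotated as coding and a multiple of 3 in length, that of Itpr1 only in a transcript marked for nonsense-mediated decay. YCAY occurred 5 times in the 87 bases of Adam22, 4 times in the 87 of Cabin1 and 2 times each in Trak1 and Kalrn, and the other printed extensions held none.

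In Emx1-Cre cortical neurons, alternative 3' sites of the cKO more often had the longer form higher, whereas alternative 5' sites were close to evenly split. The Emx1-Cre table listed 53 alternative 5' and 73 alternative 3' events. The longer form was higher in the cKO in 28 of the 53 alternative 5' events, 52.8% (Clopper-Pearson 95% interval 38.6 to 66.7, counting error only). It was higher in 47 of the 73 alternative 3' events, 64.4% (52.3 to 75.3). Among events with an FDR of at most 0.01 these shares were 64.5% (20 of 31) and 77.1% (27 of 35). At a coverage of at least 40 they were 48.4% (15 of 31) and 56.1% (23 of 41), so both shares changed with the limit used. The alternative 5' shares stayed inside the interval given above. The alternative 3' share was nearer to even at this coverage and lay above its interval at the FDR limit. Over all 2682 listed events of the table the first-named isoform was higher in the cKO in 48.4%, and over its cassette, tandem cassette and retained intron events the longer form was higher in 53.2%. Counted once per pair of sites, the longer form was higher in 25 of 46 alternative 5' pairs and 42 of 56 alternative 3' pairs. Among the repeats, 8 alternative 3' events that overlap Arhgap4 and Naa10, and 6 of Idh3b, each repeat 1 pair of sites with the longer form lower in the cKO. Events of a gene are not independent, and neither the shares nor the difference between the types was tested. An absolute difference of at least 0.2 was listed for 41.5% of the alternative 5' and 42.5% of the alternative 3' events, against 52.3% of all events in the table. Median coverage was 50.5 for the alternative 5' and 47.4 for the alternative 3' events, below the 71 over all events.

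The largest alternative 5' differences in Emx1-Cre neurons were in a chromatin remodeller and a synaptic receptor. Smarcc2 (ENSMUSG00000025369), a core subunit of the BAF chromatin remodelling complex, had the longer form at 0.910 in cKO neurons and 0.168 in control neurons in the authors' deposited table (FDR 3.22e-60, coverage 126). The control used mostly the shorter exon and the cKO mostly the longer one. The 342 extra coding bases lie at chr10:128488018-128488359, and the event overlaps a cassette event of the same table, so the same reads may bear on both. Adam22 (ENSMUSG00000040537), the neuronal receptor of LGI1, had the longer form at 0.815 in cKO and 0.203 in control neurons by the authors' values (FDR 8.2e-12, coverage 27.1). Cabin1, a calcineurin-binding inhibitor, was at 0.816 in cKO and 0.333 in control neurons in the authors' deposited table, with an FDR of 4.32e-08. Adamts18, a secreted metalloprotease, was at 0.928 in cKO and 0.469 in control neurons by the authors' values, at a coverage of 20 and with an extension of 5 coding bases, not a multiple of 3. Ino80e, a subunit of the INO80 remodelling complex, was at 0.980 in cKO and 0.556 in control neurons in the authors' deposited table, for an extension of 450 bases that is part coding.

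Other donor choices went to the shorter form. Wnk3, a kinase that regulates cation-chloride cotransporters, had the longer form at 0.0593 in cKO and 0.586 in control neurons by the authors' values (FDR 1.23e-14, coverage 49). The 141 coding bases printed above were thus in the major form of the control and in a minor form of the cKO. Itpr1, the IP3-gated calcium channel of the endoplasmic reticulum, was at 0.409 in cKO and 0.934 in control neurons in the authors' deposited table (FDR 1.36e-11, coverage 133). Its 27 coding bases were in nearly all control RNA of this exon and in the minority of cKO RNA. In the annotation they are coding only in a transcript marked for nonsense-mediated decay, and only the shorter form has protein-coding transcripts. Sh2b1, an adaptor of receptor tyrosine kinases, was at 0.354 in cKO and 0.809 in control neurons by the authors' values, with 53 extra coding bases and a coverage of 20.1. Hdac9, a class IIa histone deacetylase, was at 0.561 in cKO and 0.896 in control neurons by the authors' values (FDR 0.00871), a choice of 6 coding bases.

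Among alternative 3' sites of Emx1-Cre neurons, Tex2 and Ank3 moved most. Tex2 (ENSMUSG00000040548) had the longer form at 0.954 in cKO and 0.208 in control neurons in the authors' deposited table (FDR 3.95e-16, coverage 46.2), although the forms differ by 6 coding bases only. Ank3 (ENSMUSG00000069601) encodes ankyrin-G, which anchors sodium channels at the axon initial segment. At one of its acceptor choices, whose second site was not found in the annotation, the longer form was at 0.893 in cKO and 0.250 in control neurons by the authors' values (FDR 1.4e-18). At another, 588 coding bases at chr10:70001923-70002510, it was at 0.617 in cKO and 0.116 in control neurons in the authors' deposited table, with an FDR of 3.03e-64 and a coverage of 190. Ank2, which encodes ankyrin-B, was at 0.667 in cKO and 0.167 in control neurons by the authors' values, at a coverage of 24. Its second site was not found in the annotation either. In all of these, of the forms compared, the shorter exon was the major form of the control and the longer exon the major form of the cKO.

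Smaller shifts followed in signalling genes. Arhgap33, a GTPase-activating protein, had the longer form at 0.800 in cKO and 0.399 in control neurons in the authors' deposited table (FDR 2.38e-12), a choice of 27 bases in the 5' UTR. Rasal2, a Ras GTPase-activating protein, was at 0.601 in cKO and 0.234 in control neurons by the authors' values (FDR 0.00162). Ralgps1, an exchange factor for Ral GTPases, was at 0.858 in cKO and 0.514 in control neurons by the authors' values (FDR 0.0145, coverage 24.6), a choice of the bases CAG. Ogt, the enzyme that adds O-linked N-acetylglucosamine to intracellular proteins, was at 0.592 in cKO and 0.261 in control neurons in the authors' deposited table. It had the highest coverage of these events, 699, and an FDR of 4.08e-42. Camk2b, a calcium/calmodulin-dependent kinase of synapses, was at 0.429 in cKO and 0.107 in control neurons by the authors' values. Kalrn, a guanine nucleotide exchange factor of dendritic spines, went the other way, at 0.204 in cKO and 0.519 in control neurons in the authors' deposited table (FDR 3.23e-11, coverage 191).

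The major form changed at a minority of sites. The longer form crossed a level of 0.5 between control and cKO at 13 of 53 alternative 5' events, toward the longer form in 7 and toward the shorter in 6. At alternative 3' sites it crossed at 28 of 73, toward the longer form in 17 and the shorter in 11, and 8 of these 11 are the 1 pair of Arhgap4 and Naa10. Counted once per pair of sites, the alternative 3' crossings were 21 of 56, toward the longer form in 17 and the shorter in 4, while the alternative 5' counts stayed at 7 and 6, of 46 pairs. Where the longer form was higher in the cKO, its median level over pairs, from the authors' values, was 0.488 in cKO and 0.225 in control neurons at 25 alternative 5' pairs, and 0.576 in cKO and 0.255 in control neurons at 42 alternative 3' pairs. Where it was lower, the median was 0.561 in cKO and 0.839 in control neurons at 21 alternative 5' pairs, and 0.431 in cKO and 0.631 in control neurons at 14 alternative 3' pairs.

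**Figure D1:**
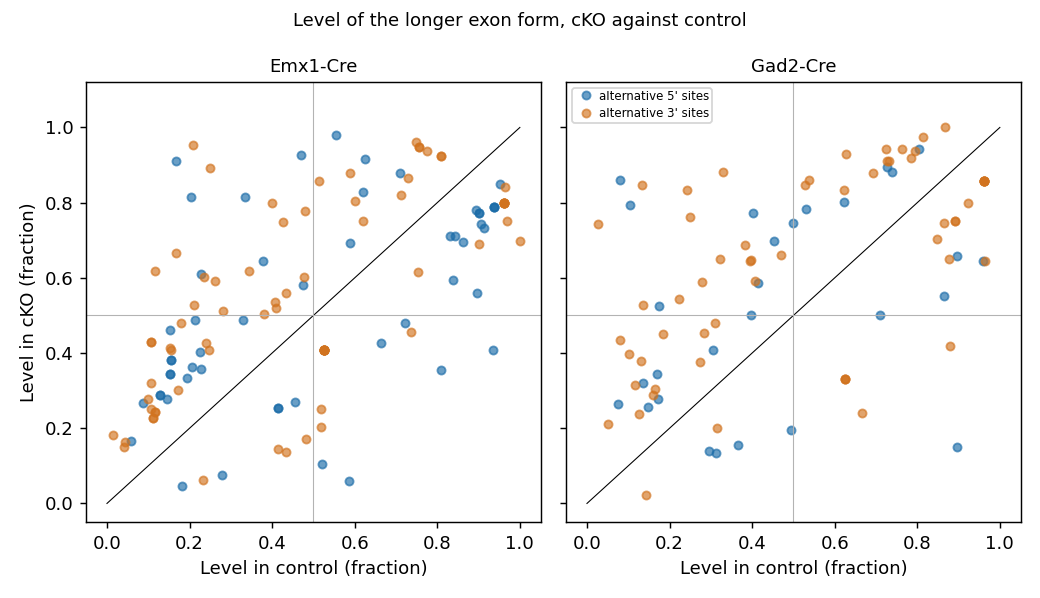
Authors' level of the longer exon form in cKO (vertical axis, fraction) against control (horizontal axis, fraction) for each listed alternative 5' event (blue) and alternative 3' event (orange) of the Emx1-Cre and Gad2-Cre tables. Points above the diagonal had more of the longer form in the cKO; the band along the diagonal is empty because the tables list only differences of at least 0.1, and the upper left area bounded by 0.5 holds the events whose major form changed to the longer exon (7 alternative 5' and 17 alternative 3' events in Emx1-Cre, 8 and 14 in Gad2-Cre). The lower right area holds 6 and 11 in Emx1-Cre, of which 8 are 1 pair of sites and lie on 1 point, and 1 and 5 in Gad2-Cre.

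In Gad2-Cre cortical neurons the longer form was higher in the cKO in the majority of events of either type. The Gad2-Cre table listed 28 alternative 5' and 59 alternative 3' events. The longer form was higher in the cKO in 19 of 28 alternative 5' events, 67.9% (47.6 to 84.1), and in 39 of 59 alternative 3' events, 66.1% (52.6 to 77.9). Among alternative 5' events with a difference of at least 0.2 it was higher in 7 of 14, and among those with an FDR of at most 0.01 in 11 of 12. The first-named isoform was higher in the cKO in 41.4% of all 1970 listed events, and the longer form in 41% of cassette, tandem cassette and retained intron events. Counted once per pair of sites, the longer form was higher in 19 of 28 and 39 of 51 pairs. Differences of at least 0.2 made up 14 of 28 alternative 5' events and 49.2% of the alternative 3' events, against 50.8% of all events. The longer form crossed 0.5 at 9 alternative 5' events, 8 of them toward the longer form, and at 19 alternative 3' events, 14 of them toward the longer form. Per pair of sites the alternative 3' count was 17, again with 14 toward the longer form.

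The largest difference of any splice site event in the Gad2-Cre table was in Adam22. Its longer form was at 0.861 in cKO and 0.080 in control neurons in the authors' deposited table (FDR 1.45e-19, coverage 35.1). Smarcc2 was at 0.794 in cKO and 0.104 in control neurons by the authors' values (FDR 3.3e-32). Ubr3, a ubiquitin ligase, was at 0.774 in cKO and 0.401 in control neurons by the authors' values for a donor choice of 12 coding bases (FDR 0.0262, coverage 23). Dock3, a Rac exchange factor of neurons, was at 0.551 in cKO and 0.865 in control neurons in the authors' deposited table, a choice of 42 coding bases. Atg4a, a protease of autophagosome formation, had a donor choice with the longer form at 0.150 in cKO and 0.897 in control neurons by the authors' values (FDR 1.03e-05). It also had an acceptor choice at 0.763 in cKO and 0.250 in control neurons by the authors' values (FDR 3.36e-05). Both Atg4a events overlap a mutually exclusive event of the table and have a coverage under 30.

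At acceptor sites of Gad2-Cre neurons, the longer form of Rasal2 was the major form of the cKO and rare in controls, at 0.742 in cKO and 0.0274 in control neurons in the authors' deposited table (FDR 1.85e-10, coverage 40). Tex2 was at 0.847 in cKO and 0.132 in control neurons by the authors' values, at a coverage of 24. Ptprs, a receptor tyrosine phosphatase of axons and synapses, was at 0.883 in cKO and 0.330 in control neurons in the authors' deposited table (FDR 2.3e-10). Its extension of 191 coding bases is not a multiple of 3, and it overlaps cassette and mutually exclusive events. Helz, an RNA helicase, was at 0.529 in cKO and 0.136 in control neurons by the authors' values (FDR 0.0295, coverage 22), a choice of CAG as in Ralgps1. St7 moved to the shorter form, at 0.418 in cKO and 0.879 in control neurons in the authors' deposited table (FDR 1.53e-08), for an extension of 1901 bases that overlaps cassette, tandem cassette and retained intron events. Kalrn was at 0.239 in cKO and 0.667 in control neurons by the authors' values (FDR 3.58e-15).

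**Figure D2:**
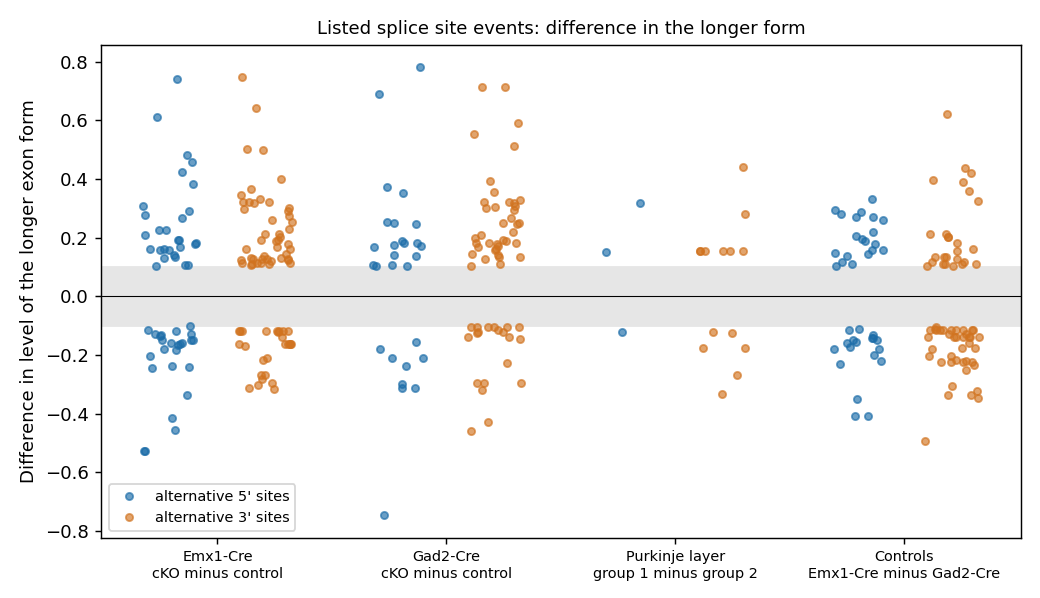
Difference in the authors' level of the longer exon form (vertical axis, first group minus second as named under each comparison) for every listed alternative 5' event (blue) and alternative 3' event (orange), with points spread sideways for legibility. The grey band marks differences below 0.1, which the tables do not list; the largest differences are in the cKO tables (Adam22 at 0.781 in Gad2-Cre, Tex2 at 0.746 in Emx1-Cre).

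Events listed in both cortical cKO tables, which have separate control groups, went the same way in both. So did 802 of the 823 events of all types that were in both tables. There were 8 such alternative 5' events, 15.1% of those listed for Emx1-Cre neurons and 28.6% of those for Gad2-Cre neurons. There were 18 such alternative 3' events, 24.7% of those listed for Emx1-Cre neurons and 30.5% of those for Gad2-Cre neurons. Over all event types, 30.7% of the events listed for Emx1-Cre neurons and 41.8% of those for Gad2-Cre neurons were in both tables, so splice site events were not above that share. The longer form was higher in both cKO groups for 6 alternative 5' and 11 alternative 3' events, and lower in both for 2 and 7. The 18 alternative 3' events are 13 pairs of sites in 12 genes, since 6 of them are 1 pair of Idh3b.

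Donor sites listed in both tables included Wnk3 and Trak1 on the lower side. In Gad2-Cre neurons Wnk3 had the longer form at 0.196 in cKO and 0.493 in control neurons in the authors' deposited table (FDR 0.0172). Trak1, which links mitochondria to kinesin, was at 0.594 in cKO and 0.839 in control Emx1-Cre neurons by the authors' values, and at 0.646 in cKO and 0.960 in control Gad2-Cre neurons. Sugp2, a protein of the SURP splicing-factor family, was at 0.611 in cKO and 0.227 in control Emx1-Cre neurons by the authors' values. In Gad2-Cre neurons it was at 0.525 in cKO and 0.174 in control in the authors' deposited table. Its 728 extra bases are annotated as 3' UTR and overlap cassette and tandem cassette events. Eed, a subunit of Polycomb repressive complex 2, was at 0.878 in cKO and 0.710 in control Emx1-Cre neurons by the authors' values, and at 0.784 in cKO and 0.531 in control Gad2-Cre neurons. Evl, an Ena/VASP regulator of actin, was at 0.279 in cKO and 0.146 in control Emx1-Cre neurons by the authors' values, and at 0.409 in cKO and 0.306 in control Gad2-Cre neurons. An event that overlaps Rbm4 and Gm21992 also rose in both, and its reads cannot be given to 1 of these genes.

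Acceptor sites listed in both tables were led by Tex2 and Ank3. In Gad2-Cre neurons the unresolved Ank3 choice was at 0.833 in cKO and 0.242 in control in the authors' deposited table (FDR 1.43e-07). The Ank3 choice of 588 bases was at 0.435 in cKO and 0.0809 in control Gad2-Cre neurons by the authors' values (FDR 4.18e-38). Ogt was at 0.544 in cKO and 0.224 in control Gad2-Cre neurons in the authors' deposited table (FDR 1.63e-37, coverage 632), a difference of 0.320 beside 0.331 in Emx1-Cre neurons. Arhgap33 was at 0.846 in cKO and 0.528 in control Gad2-Cre neurons by the authors' values. Unc79, a subunit of the NALCN sodium leak channel complex, was at 0.408 in cKO and 0.156 in control Emx1-Cre neurons by the authors' values, and at 0.396 in cKO and 0.103 in control Gad2-Cre neurons. Grip1, a scaffold of AMPA receptors, was at 0.804 in cKO and 0.600 in control Emx1-Cre neurons by the authors' values, and at 0.942 in cKO and 0.724 in control Gad2-Cre neurons. Glra2, a glycine receptor subunit, was at 0.277 in cKO and 0.101 in control Emx1-Cre neurons by the authors' values, and at 0.210 in cKO and 0.0519 in control Gad2-Cre neurons. Idh3b, a subunit of a mitochondrial isocitrate dehydrogenase, moved to the shorter form as Kalrn did, at 0.799 in cKO and 0.962 in control Emx1-Cre neurons by the authors' values, and at 0.857 in cKO and 0.962 in control Gad2-Cre neurons.

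**Figure D3:**
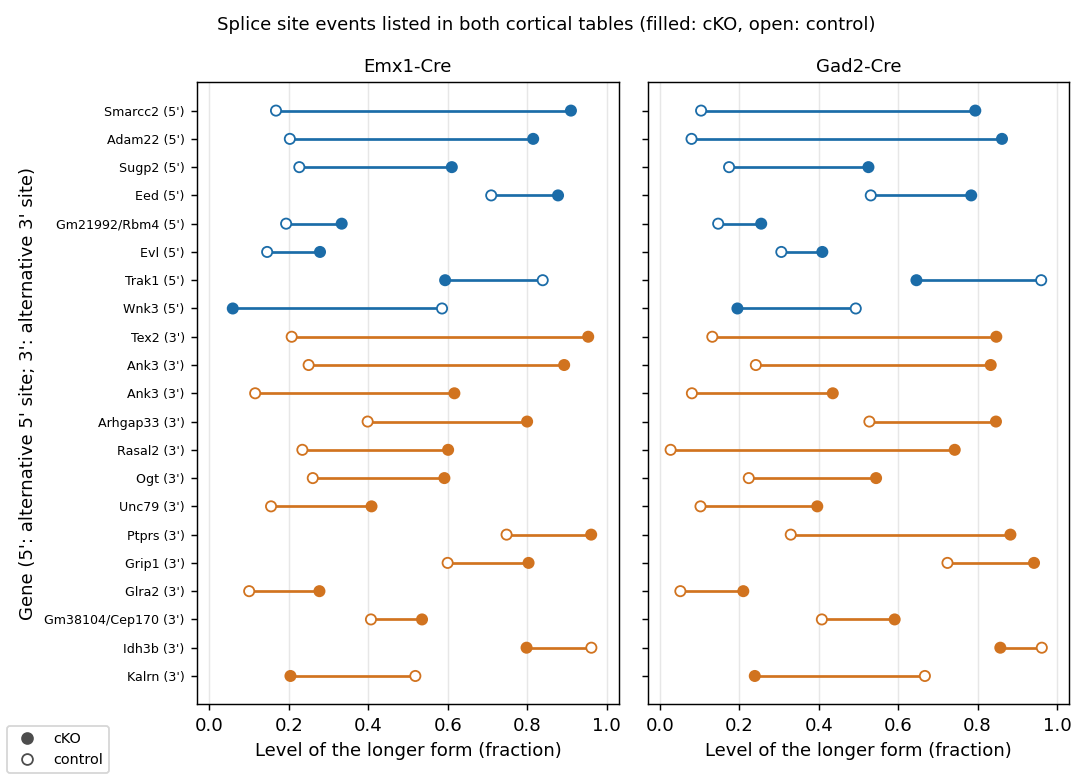
Authors' level of the longer exon form (horizontal axis, fraction) in cKO (filled) and control (open) for the splice site events listed in both cortical tables, 1 line per distinct pair of sites, with alternative 5' sites in blue and alternative 3' sites in orange. Filled points lie to the right of open points in both panels except for Trak1, Wnk3, Idh3b and Kalrn, where they lie to the left in both.

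In the Purkinje cell layer few splice site events were listed, and their direction by genotype is not known because neither the labels nor the headers name the order of the groups. The levels of its groups were therefore not used, and the authors' differences are given as group 1 minus group 2, the order found in the other tables. The cortical cKO differences above are cKO minus control, with the control as group 1, so they run in the reverse order. A sign given here can therefore not be set directly against a cortical one. The table listed 3 alternative 5' and 14 alternative 3' events, which come down to 9 pairs of 3' sites. The longer form was higher in group 1 in 2 of 3 alternative 5' and 8 of 14 alternative 3' events. The first-named isoform was higher in group 1 in 32.2% of all 603 listed events, and the longer form in 29.7% of cassette, tandem cassette and retained intron events. The 6 Idh3b events repeat 1 pair of sites, and per pair the longer form was higher in group 1 at 3 of 9. A difference of at least 0.2 was listed for 1 alternative 5' and 4 alternative 3' events, beside 36.7% of all events. Itpr1, which Purkinje cells express strongly, had a difference of 0.151 in the authors' deposited table (FDR 5.15e-39), on the same 27 bases as in Emx1-Cre neurons. Its coverage of 3920 was the highest of any splice site event. Tln2, a talin that links integrins to actin, differed by 0.317 by the authors' value (FDR 0.00219), a donor choice of 45 coding bases. Tmem234 had a difference of -0.121 by the authors' value.

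Acceptor sites of the Purkinje table were led in size by Tcaim, a mitochondrial protein, with a difference of 0.440 in the authors' deposited table (FDR 0.000435, coverage 42). Gprc5b, an orphan G protein-coupled receptor, had a difference of -0.332 by the authors' value (FDR 1.24e-73, coverage 521), over an extension of 1967 bases that is part coding. Tmem255a differed by 0.280 by the authors' value. Of the acceptor sites that were also listed in both cortical cKO tables, Rasal2 had a difference of -0.270 and the 588 bases of Ank3 one of -0.121 by the authors' values. Idh3b, whose difference had the opposite sign to both within this table, was at 0.155 by the authors' value. An acceptor choice that overlaps Amy1 and Rnpc3 had a difference of -0.178 by the authors' value. Snrnp70, which was also listed in the Emx1-Cre and control tables, had a difference of -0.125 in the authors' deposited table. The Emx1-Cre table shared 1 alternative 5' event (Itpr1) and 9 alternative 3' events with the Purkinje table, and the Gad2-Cre table shared 0 and 9. In each set of 9, 6 events are the 1 pair of Idh3b, so each cortical table shared 4 of the 9 pairs of 3' sites in the Purkinje table. At these pairs and at Itpr1, cortical and Purkinje differences had the same sign when both were taken as group 1 minus group 2. Which genotype group 1 is in the Purkinje table remains unknown. Counted by events with the repeats of Idh3b, each cortical table shared 9 of the 14 alternative 3' events of the Purkinje table (64.3%). Over all event types, the Emx1-Cre table shared 161 of the 603 events of the Purkinje table (26.7%), and 147 (24.4%) were shared with the Gad2-Cre table. These shares over all types are by events and were not counted per pair of sites.

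Emx1-Cre and Gad2-Cre control neurons differed at 38 alternative 5' and 66 alternative 3' events, which come down to 41 pairs of 3' sites. The longer form was higher in Emx1-Cre controls in 20 of 38 alternative 5' events, 52.6% (35.8 to 69.0), and in 26 of 66 alternative 3' events, 39.4% (27.6 to 52.2). Among the alternative 3' events with an FDR of at most 0.01 the direction turned, with the longer form higher in Emx1-Cre controls in 15 of 22 (68.2%). The first-named isoform was higher in Emx1-Cre controls in 36.3% of all 1236 listed events, and the longer form in 33.5% of cassette, tandem cassette and retained intron events. A difference of at least 0.2 was listed for 15 alternative 5' and 27 alternative 3' events, beside 50.4% of all events. Counted per pair of sites, the longer form was higher in Emx1-Cre controls at 18 of 35 alternative 5' and 19 of 41 alternative 3' pairs; 9 of the alternative 3' events repeat 1 pair of Rnf10 and 7 repeat 1 pair of Mid1ip1. These controls are the same samples that serve as controls of the cKO tables, so the values that follow are not independent of those above.

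The largest difference between the controls was in Qk, which encodes the RNA-binding protein quaking. The longer form, with 761 more bases, was at 0.754 in Emx1-Cre and 0.132 in Gad2-Cre control neurons in the authors' deposited table (FDR 6.82e-19). In Emx1-Cre cKO neurons the same form was at 0.616 by the authors' value. An event that overlaps Tbrg4 and Snora5c was at 0.235 in Emx1-Cre and 0.727 in Gad2-Cre control neurons by the authors' values, at a coverage of 22. Ptprs was at 0.748 in Emx1-Cre and 0.330 in Gad2-Cre control neurons by the authors' values; in the cKO groups it was at 0.961 in Emx1-Cre and 0.883 in Gad2-Cre neurons. Celf1, an RNA-binding protein of the CELF family, was at 0.797 in Emx1-Cre and 0.471 in Gad2-Cre control neurons in the authors' deposited table, and at 0.661 in Gad2-Cre cKO neurons. Sept2, a septin, was at 0.929 in Emx1-Cre and 0.538 in Gad2-Cre control neurons by the authors' values, a choice of 4 bases in the 5' UTR, and at 0.860 in Gad2-Cre cKO neurons. An event that overlaps Eny2 and Gm22392 was at 0.736 in Emx1-Cre control neurons, 0.436 above Gad2-Cre control neurons, by the authors' values (FDR 0.0105), and at 0.455 in Emx1-Cre cKO neurons. Among donor sites, the noncoding RNA Miat was at 0.308 in Emx1-Cre and 0.716 in Gad2-Cre control neurons by the authors' values (FDR 0.0349), a choice of 8 bases. Ccnt2, a cyclin of the elongation factor P-TEFb, was at 0.470 in Emx1-Cre and 0.820 in Gad2-Cre control neurons by the authors' values. Baz2b, a bromodomain protein, was at 0.556 in Emx1-Cre and 0.225 in Gad2-Cre control neurons by the authors' values, a choice of 105 coding bases. Sec23b, a subunit of the COPII vesicle coat, was at 0.455 in Emx1-Cre and 0.160 in Gad2-Cre control neurons by the authors' values (coverage 25). Slc29a1, a nucleoside transporter, was at 0.455 in Emx1-Cre and 0.169 in Gad2-Cre control neurons by the authors' values, and its longer form was at 0.344 in Gad2-Cre cKO neurons.

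Genes of RNA processing, synapses and signalling were among those with splice site events. The lists used here were chosen with earlier results of these data known, and counts are of genes by their largest splice site event. Of all 1155 genes with a listed event in Emx1-Cre neurons, 105 (9.09%) had a splice site event, as did 81 of 975 such genes in Gad2-Cre neurons (8.31%). Of 96 RNA-binding and splicing factors, 29 had any listed event in the Emx1-Cre table and 6 had a splice site event, with the longer form higher in the cKO in 5. One of these is Rbm4, which counts through the event that also overlaps Gm21992, in the Emx1-Cre and in the Gad2-Cre table. Snrnp70, the U1-70K protein of the donor-recognising U1 particle, had the longer form at 0.414 in cKO and 0.154 in control Emx1-Cre neurons by the authors' values (FDR 1.97e-13), for an extension of 2366 bases that is part coding. Luc7l, a protein associated with the U1 particle, was at 0.409 in cKO and 0.247 in control Emx1-Cre neurons by the authors' values. Tia1, which promotes use of weak donor sites, was at 0.358 in cKO and 0.228 in control Emx1-Cre neurons in the authors' deposited table. Qk, given above, was the 1 gene of this list with the longer form lower in Emx1-Cre cKO neurons. For Gad2-Cre neurons, 27 of the 96 had any event and 3 had a splice site event, with 2 higher and 1 lower. The lower one was U2af1l4, a relative of the small subunit of U2AF, at 0.157 in cKO and 0.367 in control by the authors' values.

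Of 108 synapse and adhesion genes, 47 had any listed event in the Emx1-Cre table and 44 in the Gad2-Cre table. The longer form was higher in the cKO in each of the 5 with a splice site event in the Emx1-Cre table (Adam22, Glra2, Grip1, Ptprs and Snap91). It was higher in each of the 4 in the Gad2-Cre table (Adam22, Glra2, Grip1 and Ptprs). Over all genes with a listed event, 9.09% in the Emx1-Cre and 8.31% in the Gad2-Cre table had a splice site event. Over all pairs of sites, the longer form was higher in Emx1-Cre cKO at 25 of 46 alternative 5' and 42 of 56 alternative 3' pairs. In Gad2-Cre cKO it was higher at 19 of 28 and 39 of 51. These shares also stand beside the lists that follow. Of 79 cytoskeleton and motor genes, 34 had any listed event in the Emx1-Cre table and 6 a splice site event, with 5 higher and 1 lower. Of these genes, 27 in the Gad2-Cre table had any event and 3 a splice site event, with 2 higher and 1 lower. The 1 lower in Emx1-Cre neurons was Epb4.1, which joins spectrin to actin, at 0.842 in cKO and 0.963 in control by the authors' values, a choice of 3 bases. In Gad2-Cre neurons it was the kinesin gene Kif1b, at 0.745 in cKO and 0.865 in control by the authors' values. Of 74 genes listed as small GTPase regulators and kinases, 27 had any event in the Emx1-Cre table and 4 a splice site event, with 3 higher and 1 lower. For Gad2-Cre neurons 25 had any event and 4 a splice site event, with 1 higher and 3 lower. The 3 lower in Gad2-Cre neurons were Kalrn, Brsk2 and Atg4a, which is neither a GTPase regulator nor a kinase but a protease that the list also holds. Brsk2, a kinase of neuronal polarity, was at 0.139 in cKO and 0.295 in control Gad2-Cre neurons in the authors' deposited table. Of 57 chromatin and transcription genes, 20 had any event in the Emx1-Cre table and 3 a splice site event, with 1 higher and 2 lower. For Gad2-Cre neurons 18 had any event and 2 a splice site event, with 1 higher and 1 lower. The lower one was Chd3, a chromatin remodeller, at 0.798 in cKO and 0.924 in control by the authors' values. The lists do not hold every gene of their kind. Arhgap33, Ralgps1, Wnk3, Dock3, Ino80e, Eed and Trrap, which have values elsewhere in the text, are in none of these counts. The directions therefore describe the listed members only. None of these list counts was tested against the share over all genes. Of 36 markers of other cell types, none had a splice site event in any table; since the tables hold no expression levels, this says nothing of the presence of such cells.

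Sites 3 bases apart were mostly acceptor sites. The second site could be found in the annotation for 70 of 86 alternative 5' and 93 of 126 alternative 3' pairs, and the lengths below are for these. The extension had a median of 55 bases at 5' sites (range 3 to 2547) and 45 at 3' sites (range 3 to 3075). An extension of exactly 3 bases occurred at 17 alternative 3' pairs and 1 alternative 5' pair, that of Mau2. Acceptors 3 bases apart are known as NAGNAG sites. The extension was a multiple of 3 at 37 alternative 5' pairs (52.9%) and 57 alternative 3' pairs (61.3%). Among extensions that lie wholly in coding sequence, it was a multiple of 3 at 29 of 43 alternative 5' pairs (67.4%) and 35 of 46 alternative 3' pairs (76.1%). In the cKO tables this was 24 of 34 (70.6%) and 30 of 37 (81.1%), and among pairs listed only between controls it was 4 of 8 at 5' sites and 5 of 9 at 3' sites. The difference between these sets was not tested.

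**Figure D4:**
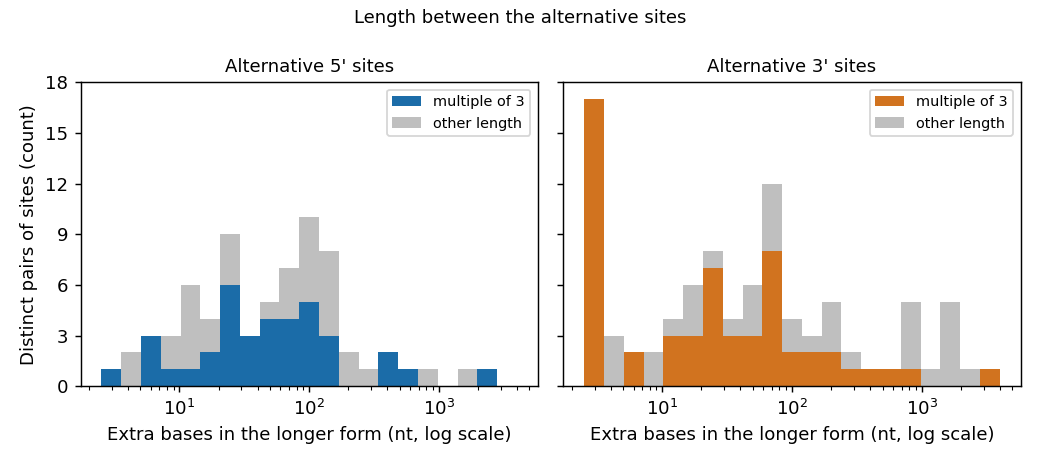
Number of distinct pairs of sites (vertical axis) by the extra bases of the longer form (horizontal axis, log scale) for alternative 5' sites (left) and alternative 3' sites (right), coloured where the length is a multiple of 3 and grey otherwise, stacked. The leftmost bar of the right panel is the 17 acceptor pairs that are 3 bases apart.

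Counts of each direction were also taken by the length of the extension, with no test of the difference between lengths. In Emx1-Cre neurons the longer form was higher in the cKO at 3 of 7 acceptor pairs that are 3 bases apart, 16 of 20 of 4 to 99 bases and 13 of 15 of 100 bases or more. In Gad2-Cre neurons these counts were 3 of 5, 15 of 20 and 10 of 13. At donor sites of Emx1-Cre neurons the longer form was higher at 9 of 23 pairs of 4 to 99 bases and at 10 of 13 of 100 bases or more. At donor sites of Gad2-Cre neurons it was higher at 8 of 15 and 6 of 7. The pairs 3 bases apart with the largest differences were Helz and Ralgps1, given above, and Camk2b. Trrap, a scaffold of histone acetyltransferase complexes, was at 0.699 in cKO and 1 in control Emx1-Cre neurons by the authors' values (FDR 0.0143, coverage 22). Ift122, a protein of ciliary transport, was at 0.146 in cKO and 0.415 in control Emx1-Cre neurons by the authors' values. Sun1, a nuclear envelope protein, was at 0.649 in cKO and 0.876 in control Gad2-Cre neurons in the authors' deposited table. None of the pairs 3 bases apart was listed in both cortical tables.

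At some pairs both forms are annotated but only the shorter one in protein-coding transcripts. In Emx1-Cre neurons there were 10 such acceptor pairs, and the longer form was higher in the cKO at 8 of them. It was higher at 16 of 23 acceptor pairs with protein-coding transcripts for both forms. In Gad2-Cre neurons these counts were 3 of 4 and 21 of 29. A further 3 acceptor pairs in Emx1-Cre and 2 in Gad2-Cre neurons had a longer form that no annotated transcript holds, with the longer form higher in the cKO at 3 and 1 of them. At donor sites of Emx1-Cre neurons the longer form was higher at 5 of 7 pairs with protein-coding transcripts for the shorter form only, and at 9 of 18 with both. In Gad2-Cre neurons these counts were 1 of 3 and 9 of 13. Other pairs had protein-coding transcripts for the longer form only. In Emx1-Cre neurons their longer form was higher in the cKO at 3 of 4 acceptor and 3 of 5 donor pairs. In Gad2-Cre neurons it was higher at 3 of 3 and 2 of 2. Where no annotated transcript holds the shorter form, the longer was higher at 1 of 5 donor pairs in Emx1-Cre and 3 of 5 in Gad2-Cre neurons. Between controls, the longer form was lower in Emx1-Cre neurons at each of 6 acceptor pairs with protein-coding transcripts for the shorter form only. It was lower at 8 of 10 such donor pairs. With protein-coding transcripts for the longer form only, it was higher in Emx1-Cre controls at 3 of 4 acceptor and 5 of 6 donor pairs. These counts are small and were not tested.

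The inner donor site was GT at all 70 alternative 5' pairs with sequence, and the inner acceptor site was AG at all 85 alternative 3' pairs with sequence. YCAY, searched on the transcribed strand as TCAT, TCAC and the same words with a leading C, was counted in the extensions of pairs from the cKO tables. It occurred 1.84 times per 100 bases at alternative 5' sites and 1.58 times at alternative 3' sites. The first 50 bases of the shared exon next to the site held 1.71 and 1.73 per 100 bases. Where the longer form of a donor pair was higher in the cKO (28 pairs), the extension held 2.16 and this stretch 0.957. Where it was lower (23 pairs), these were 1.47 and 2.61. At acceptor pairs they were 1.61 and 1.90 where the longer form was higher, and 1.45 and 1.33 where lower. With 100 bases of shared exon the donor values were 1.55 and 2.35 for higher and lower. The difference between directions was not tested. Over both directions, 25 of 51 donor and 31 of 64 acceptor extensions held a YCAY. The shared exon was at least as long as the extension at 36 of these donor pairs. There 14 extensions held a YCAY, beside 17 stretches of the shared exon of the same length. At the 43 such acceptor pairs these were 13 and 11. The intron next to the sites was not searched, because no genome sequence of the build was used here.

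Many splice site events overlap other listed events in position on the same strand, whether or not the gene is the same. Cassette exons were the most frequent type of event, 1814 of the 4923 listed. The share with an overlap was not computed for other event types. For Emx1-Cre neurons, 18 of 53 alternative 5' and 28 of 73 alternative 3' events overlapped a listed event of another type, most often a cassette exon (14 and 19). For Gad2-Cre neurons these were 8 of 28 and 19 of 59, with a cassette exon in 5 and 14. Smarcc2, Ptprs, Atg4a and St7 are among those that overlap in at least 1 table. Cabin1, Wnk3, Trak1, Itpr1, Hdac9, Tex2, Rasal2, Kalrn and Ogt overlapped no other listed event type in the cKO tables.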

How the data were processed

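RNA of 18 libraries was compared in 4 tables. The authors quantified splicing with Quantas on mm10, named in the labels' file titles; kallisto and edgeR appear in the submitters' processing notes without a role, and the aligner and versions are not given in the sources used here. Per the file headers, each deposited event has an inclusion level per group (a fraction pooled by the authors), the authors' difference score (group 1 minus group 2), a p-value with its FDR, and a coverage signal. In both cortical cKO comparisons group 1 is the control by the labels' file titles; no source names the groups of the Purkinje table, whose 2 level columns were not used. Differences are given here as cKO minus control. The comparison of controls repeated these control levels at all 307 and 323 shared events. The deposited intervals gave 1 isoform per event. The second site was the annotated site in GENCODE M21 on the side given by the isoform numbers. A check on simulated exons placed the other site on that side, so it tested neither the numbering nor exons with further sites. Python 3.11.15, pandas 2.3.3, SciPy 1.17.1 and matplotlib 3.10.9 were used. No test across samples was possible, and the authors' FDR is the test behind each event. Named events were, per type, the 8 largest differences in each cKO table and the 5 largest in the others, the events of 3 tables, the 6 largest shared between the cKO tables and 2 members per gene list; the text gives values for most of these, and names 3-base events and other list members beyond this. The members and lists were chosen with earlier results of these data known. Alternatives changed the difference, FDR or coverage limit, took 1 event per gene or per pair of sites, or left out short extensions.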

Additional observations from a re-analysis of the deposited data

How the results depend on the processing

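Of 148 recomputed shares and medians, 127 stayed within the interval of the reported value and 21 moved beyond it; no test was run on them. A coverage of at least 40 and counting each pair of sites once moved none beyond it. Values without an interval were held against a limit of 1.5 times the reported value, and 4 of 4 stayed within it: the number of pairs in both cortical tables matched by position, and YCAY in 100 bases of shared exon. Counting pairs once and this window were chosen after seeing the data. Counting only differences of at least 0.2 raised the median absolute difference to 0.322 and 0.301 for alternative 5' and 3' events in Emx1-Cre, 0.306 and 0.309 in Gad2-Cre, 0.271 and 0.250 between controls and 0.306 for Purkinje alternative 3' events, by construction; it left 1 Purkinje alternative 5' event, so its shares became 100%. Among such events the longer form was higher in 7 of 14 Gad2-Cre alternative 5' events, inside the wide interval of the share over all 28. An FDR of at most 0.01 gave medians of 0.242 (Emx1-Cre alternative 5') and 0.272 (Gad2-Cre alternative 3'). It gave shares with the longer form higher of 77.1% (Emx1-Cre alternative 3', 27 of 35), 91.7% (Gad2-Cre alternative 5', 11 of 12) and 68.2% between controls (alternative 3', 15 of 22), where the majority changed side. It gave shares of multiples of 3 of 44.4% (Gad2-Cre alternative 5') and 0% (controls alternative 5', 0 of 6), and put 6 of 12 Gad2-Cre alternative 5' events in both cortical tables (50%). Leaving out extensions of 3 bases and sites that were not resolved gave 83.3% (Emx1-Cre alternative 3', 30 of 36) and 14.3% (Purkinje alternative 3', 1 of 7) with the longer form higher, and a median of 0.220 for alternative 3' events between controls; 1 event per gene gave 0.205 there. The causes were not tested. The planned YCAY windows in introns were not run. No paired analysis was possible because the tables hold 1 pooled level per group. Coverage near 20 limits single levels, which carry no error here.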
